A study of Mus musculus with 4 samples.

Results

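The 35 genes described here carry fatty acids into the cell, store them in lipid droplets, release them and oxidise them in mitochondria. They were chosen by symbol, from a list of fatty acid transporters and binding proteins, acyl-CoA synthetases, droplet proteins, lipases, carnitine shuttle and beta-oxidation enzymes and the nuclear receptors and coactivators that act on them, and all 35 were found among the 55416 gene IDs of the count table through their Ensembl IDs. The rule itself uses no measured value. The RNA came from myeloid-derived suppressor cells (MDSCs), which are immature neutrophils and monocytes that accumulate with tumours and restrain T cells. Cells were sorted by flow cytometry, on surface markers that the labels do not name, from the ascites of wild-type (WT) mice and of mice lacking sphingosine kinase 2 (Sphk2 KO). Every mouse of both genotypes had been injected with the mouse T lymphoma line EL4 and was killed at day 14, so no group is free of tumour. There were 2 libraries of each genotype. The labels give no strain, age or sex, do not say whether cells of several mice were pooled or whether the libraries came from separate mice, and do not say in which cells the kinase gene was lost. P-values therefore measure the spread between these libraries, which may be technical in part.

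Fatty acids enter cells through the scavenger receptor CD36 and the fatty acid transport proteins, are joined to coenzyme A by the long-chain acyl-CoA synthetases, and are then either esterified into triglyceride, which is kept in droplets coated by perilipins, or handed to carnitine for entry into mitochondria. There the acyl-CoA dehydrogenases and the trifunctional protein shorten them by repeated cycles. The peroxisome proliferator-activated receptors (PPARs) bind fatty acids and control many of these genes, with the coactivators PGC-1 alpha and beta. MDSCs in tumours are known for taking up lipid, for building droplets and for drawing on fatty acid oxidation.

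Start-site windows of members were read from RefSeq (GRCm38.p6, 250 bases before to 50 bases after the annotated start) to show which start regions and receptor motifs members share. Of the 35 members, 28 matched an entry, with 35 windows in all. The PPAR response element AGGTCANAGGTCA, searched on both strands, was found in 0 of the 35 windows and in 0.0396% of all 32851 windows of the table. At that share 35 windows would be likely to hold none, so the 0 does not set the members apart. A single copy, AGGTCA, lies within that element by construction and was found in 8 windows (22.9%) against 16.3% of all windows. ACGTG, the core of the hypoxia response element, was found in 8 windows (22.9%) against 19.6%. The annotated starts of Hadha and Hadhb, which encode the alpha and beta subunits of the trifunctional protein, lie 273 bases apart. These genes run in opposite directions, and their windows share 228 bases. The Hadhb window is shown for that shared stretch, and those of Plin2, the main droplet coat protein, and Cpt1a, the entry step of mitochondrial oxidation, for their matches to the single copy or to ACGTG. Capitals mark the stretch shared with the Hadha window in Hadhb, and the matches to AGGTCA or ACGTG, on either strand, in Plin2 and Cpt1a.
Hadhb, GRCm38.p6 chr5:30155003-30155302, plus strand: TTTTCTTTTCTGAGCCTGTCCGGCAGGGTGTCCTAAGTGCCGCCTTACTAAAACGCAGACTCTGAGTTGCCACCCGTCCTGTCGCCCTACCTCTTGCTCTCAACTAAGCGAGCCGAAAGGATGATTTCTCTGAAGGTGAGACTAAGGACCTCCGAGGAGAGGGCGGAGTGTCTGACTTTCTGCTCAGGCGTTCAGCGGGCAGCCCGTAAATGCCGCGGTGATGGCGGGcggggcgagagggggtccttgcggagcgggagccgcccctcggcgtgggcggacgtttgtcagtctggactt
Plin2, GRCm38.p6 chr4:86670010-86670309, minus strand: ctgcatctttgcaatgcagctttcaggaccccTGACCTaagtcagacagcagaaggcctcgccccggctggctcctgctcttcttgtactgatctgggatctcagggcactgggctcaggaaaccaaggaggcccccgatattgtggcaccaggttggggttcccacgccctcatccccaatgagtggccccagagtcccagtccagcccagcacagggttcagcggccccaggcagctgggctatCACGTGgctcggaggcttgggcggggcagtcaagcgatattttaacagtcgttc
Cpt1a, GRCm38.p6 chr19:3323051-3323350, plus strand: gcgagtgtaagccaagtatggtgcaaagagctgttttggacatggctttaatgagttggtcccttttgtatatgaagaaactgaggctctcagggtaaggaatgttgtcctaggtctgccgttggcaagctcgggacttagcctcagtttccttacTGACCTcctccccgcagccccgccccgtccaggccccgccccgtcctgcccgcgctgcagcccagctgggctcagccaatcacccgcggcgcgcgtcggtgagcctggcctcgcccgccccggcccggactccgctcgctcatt
In Plin2 the capitals are a single copy on the opposite strand and, next to the start, ACGTG read on both strands. In Cpt1a they are a single copy on the opposite strand. A match is a description of these letters and shows no binding.

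The libraries held 14087613 to 24685576 counts, and the 35 members took 0.183% to 0.206% of the counts of each library. Levels of 1 gene are given as CPM, which are counts over the library size scaled by the TMM method, and different genes are compared only as CPM per kilobase of exon. A library's limit for a gene with no counts, set at 3 counts, lay at 0.133 to 0.217 CPM. Sphk2 itself stood at 54.9 and 53.7 CPM in the WT libraries and at 4.07 and 4.45 CPM in the Sphk2 KO libraries (log2 fold change -3.67, SE 0.186, with an edgeR adjusted p of 0.000127), so the labels matched the targeted gene. Genes of sorted myeloid cells were abundant in every library, with S100a8 at 3957 to 9343 CPM, Itgam at 181 to 258 CPM and Ly6g at 47.1 to 113 CPM. Monocyte and macrophage genes were also present, with Csf1r at 457 to 570 CPM and Adgre1 at 79.2 to 110 CPM in overlapping groups. B cell genes were present as well, with Cd79a at 25.7 to 53.5 CPM. Of the T cell and EL4 markers, Cd3e lay at 0.489 to 2.18 CPM and Cd5 at 11.1 to 12.4 CPM. Of the platelet and megakaryocyte markers, Pf4 had 1 to 6 counts, while Itga2b lay at 17.2 to 21.8 CPM and Itgb3 at 16.9 to 28.6 CPM, and the list summed to 38.9 to 53.7 CPM. The endothelial gene Cdh5 had 1 to 9 counts. Of the adipocyte markers, Adipoq had 1 count or none in each library, while Retn lay at 8.39 to 17.3 CPM. That list summed to 8.81 to 17.4 CPM. In some marker lists the summed levels of the genotypes did not overlap. Of all tested genes, 20.4% had both Sphk2 KO libraries above both WT libraries and 22.7% had both below. The summed level of 13 MDSC and neutrophil markers was 20920 and 28770 CPM in WT and 33110 and 39660 CPM in Sphk2 KO. The summed erythroid markers were 65.6 and 195 CPM in WT and 333 and 582 CPM in Sphk2 KO, and the summed T cell and EL4 markers 52.5 and 43.4 CPM against 29.6 and 28.2 CPM. The summed B cell markers were 1219 and 1039 CPM in WT and 1174 and 557 CPM in Sphk2 KO, with 5 of the 7 tested below the WT range. The summed monocyte and macrophage markers were 1054 and 1083 CPM in WT and 934 and 859 CPM in Sphk2 KO. Of the 13 tested, 0 lay above and 3 below the WT range (Ccr2, Fcgr1 and Apoe). These 3 are 23.1% of the list, near the share of all tested genes below. In bulk RNA, fewer cells of a type and less RNA per cell cannot be told apart.

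Of the 35 members, 33 had enough counts to be tested, and 0 of them were called between genotypes by the edgeR quasi-likelihood test at a Benjamini-Hochberg adjusted p under 0.05 over all 16566 tested genes. Over the same genes 18 were called (0.109%), 7 of them higher (0.0423%) and 11 lower (0.0664%) in Sphk2 KO, and at that share 33 genes would be likely to hold none. DESeq2, with 0.256% of all genes called, and limma-voom, with 0.115%, also called 0 members. With no count filter 2 members were called, beside 2.07% of all genes. At an unadjusted p under 0.05 there were 2 members, Fabp5 with higher and Slc27a1 with lower values in Sphk2 KO, or 6.06% of those tested. Of all tested genes 10.5% passed it, 3.06% with higher and 7.47% with lower values. In 15 members both Sphk2 KO libraries lay outside the range of the WT libraries, 7 above and 8 below. That is 45.5%, against 43.2% of all tested genes, of which 20.4% lay above and 22.7% below. The median log2 fold change of the members, Sphk2 KO over WT, was 0.03, beside -0.00075 for all tested genes. The members ranged from -1.16 to 0.82, with 18 positive and 15 negative.

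How closely a change was bounded differed among the members. In 22 of the 33 (66.7%) the whole 95% interval lay within a 2-fold change either way, against 54.5% of all tested genes, and the median standard error was 0.21 against 0.28. The interval reached past 2-fold for Cd36, Fabp4, Fabp5, Slc27a1, Lpl, Acsl3, Hilpda, Cpt1b, Pparg, Ppargc1a and Ppargc1b, most of which are expressed at low levels. With library size alone in place of TMM the median of all tested genes moved to -0.17 and that of the members to -0.14. Then 2 members lay above and 11 below the WT range in place of 7 and 8. These 13 of the 33 stand beside 41.4% of all tested genes outside the WT range at that setting. The directions given below are relative to the TMM scaling.

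**Figure D1:**
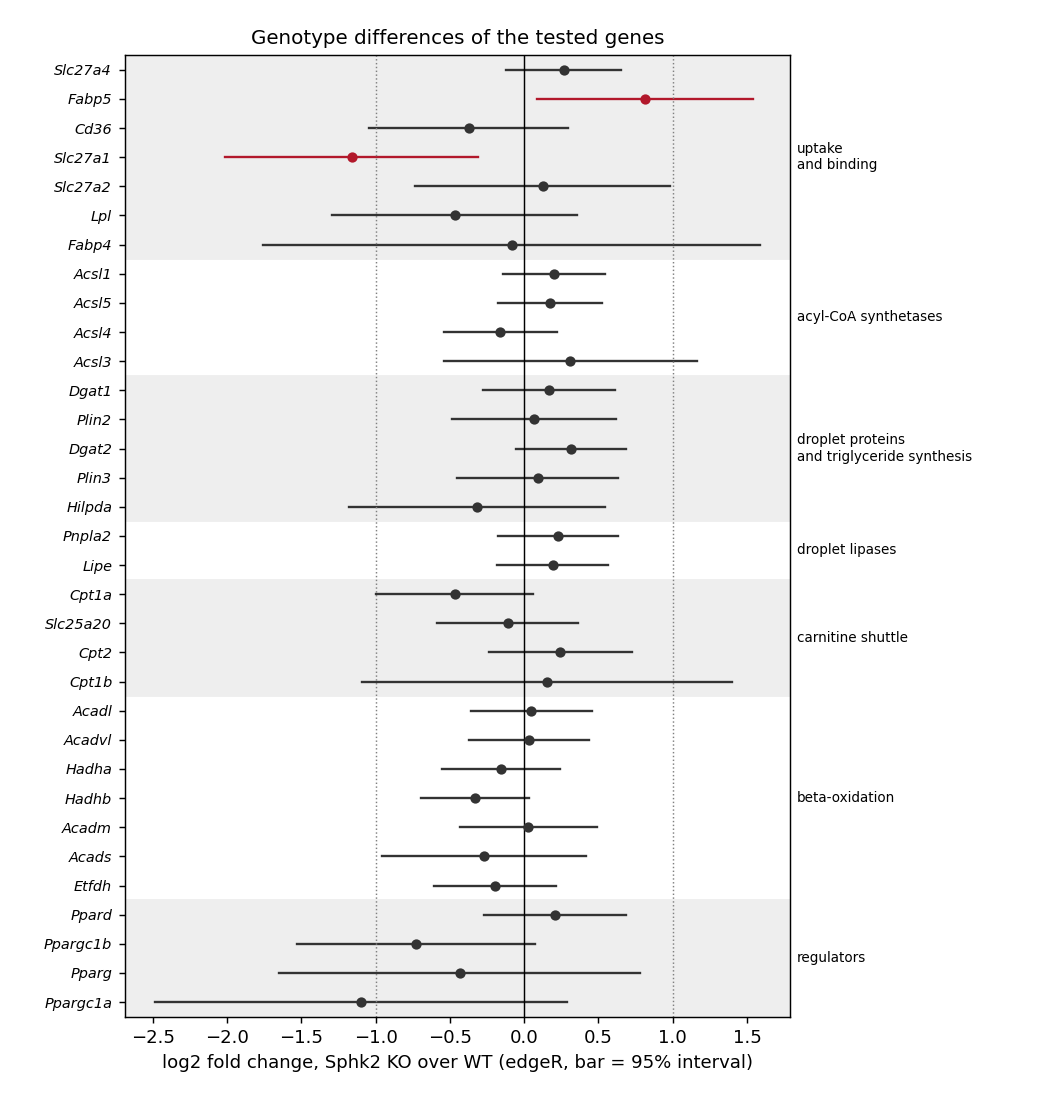
Log2 fold change (Sphk2 KO over WT) of the 33 tested members by role, with 95% intervals from the edgeR fit and dotted lines at a 2-fold change. Red marks Fabp5 and Slc27a1, the members with an unadjusted p under 0.05; the intervals of the other members all include 0.

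Uptake and binding genes held both of these members. Fabp5 (ENSMUSG00000027533, chromosome 3), a cytosolic fatty acid carrier of macrophages and epithelia, was at 20.8 and 44.1 CPM in WT replicates 1 and 2 and at 49.1 and 64.5 CPM in Sphk2 KO replicates 1 and 2. Both Sphk2 KO libraries were above both WT libraries, with WT replicate 1 far below the others. The mean was 32.5 ± 16.5 CPM over the WT libraries and 56.8 ± 10.9 CPM over the Sphk2 KO libraries (SD, n = 2 each). The log2 fold change was 0.82 (SE 0.316, 95% interval 0.09 to 1.54), and the edgeR adjusted p was 0.438. Without WT replicate 1 the log2 fold change was 0.36, and without WT replicate 2 it was 1.47 with an edgeR adjusted p of 0.000453, in a fit that called 5.93% of all genes. Without Sphk2 KO replicate 1 it was 0.99, with an edgeR adjusted p of 0.0104, in a fit that called 3.57% of all genes. The order of the 4 libraries in Fabp5 is also the order of the summed MDSC and neutrophil markers and of the summed erythroid markers. Of all tested genes 20.8% were lowest in WT replicate 1 and highest in Sphk2 KO replicate 2. So were 8 of the 13 MDSC and neutrophil markers and 7 of the 8 erythroid markers. Above the WT range lay 8 of the 13 (61.5%) and 7 of the 8 (87.5%), against 20.4% of all tested genes. The part of either marker list in the Fabp5 values was not tested.

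Slc27a1 (ENSMUSG00000031808, chromosome 8) encodes FATP1, a transport protein of the plasma membrane that also activates fatty acids. It stood at 7.22 and 3.90 CPM in the WT libraries and at 2.57 and 2.45 CPM in the Sphk2 KO libraries. The 2 Sphk2 KO libraries were nearly equal and below both WT libraries, which themselves differed widely. The mean was 5.56 ± 2.35 CPM over the WT libraries and 2.51 ± 0.0859 CPM over the Sphk2 KO libraries (SD, n = 2 each). The log2 fold change was -1.16 (SE 0.372, 95% interval -2.01 to -0.31, with an edgeR adjusted p of 0.412). Without WT replicate 1 the log2 fold change was -0.65, and without WT replicate 2 it was -1.51, each with 1 WT library left. The summed T cell and EL4 markers were also higher in both WT libraries, with WT replicate 1 the highest. Of the 10 tested, 7 (70%) lay below the WT range in Sphk2 KO, against 22.7% of all tested genes. The monocyte marker Ccr2 lay in the same library order as Slc27a1, at 279 and 173 CPM in WT and 145 and 69.4 CPM in Sphk2 KO. Of the 13 tested monocyte and macrophage markers, however, 10 overlapped between genotypes and 3 lay below the WT range. Of all tested genes 23.4% were highest in WT replicate 1 and lowest in Sphk2 KO replicate 2. The part of either list in the Slc27a1 values was not tested.

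The log2 fold changes of the other transport proteins were positive, with 95% intervals that include 0. That of Slc27a2 was -0.043 with library size alone. Slc27a4, which encodes FATP4, had 96.2 and 115 CPM in WT and 139 and 115 CPM in Sphk2 KO, so that 1 Sphk2 KO library lay at the level of WT replicate 2 (log2 fold change 0.27, SE 0.169). Slc27a2, which encodes FATP2, the family member known from suppressive neutrophils of tumour-bearing mice, lay at 1.54 to 2.17 CPM in all 4 libraries (log2 fold change 0.13, 95% interval -0.73 to 0.99). Per kilobase, Slc27a4 was 45.1 to 63.8 times as high as Slc27a2 and 17.6 to 71.6 times as high as Slc27a1 within a library (9.19 to 37.3 times with the longest coding transcript). It was the highest of the 3 in every library.

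The scavenger receptor gene Cd36 was at 7.65 and 9.10 CPM in WT and at 5.07 and 7.74 CPM in Sphk2 KO, where the groups overlap (log2 fold change -0.37, 95% interval -1.04 to 0.30). Lpl, whose product frees fatty acids from lipoproteins, was low at 1.56 to 2.60 CPM, with neither Sphk2 KO library reaching the WT range (log2 fold change -0.47, 95% interval -1.29 to 0.36). Fabp4, the carrier of adipocytes and macrophages, ran from 0.357 CPM in Sphk2 KO replicate 1 to 1.52 CPM in WT replicate 2, and both groups spanned most of that range. Fabp5 exceeded Fabp4 by 36.6 to 173 times per kilobase (26.4 to 125 with the longest coding transcript). The highest ratio was in Sphk2 KO replicate 1, where Fabp4 had 5 counts. Over the 7 uptake and binding genes the median log2 fold change was -0.08. It ran from -0.51 without WT replicate 1 to 0.40 without WT replicate 2. Of the 7, 1 (14.3%) lay above and 2 (28.6%) below the WT range, against 20.4% and 22.7% of all tested genes.

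**Figure D2:**
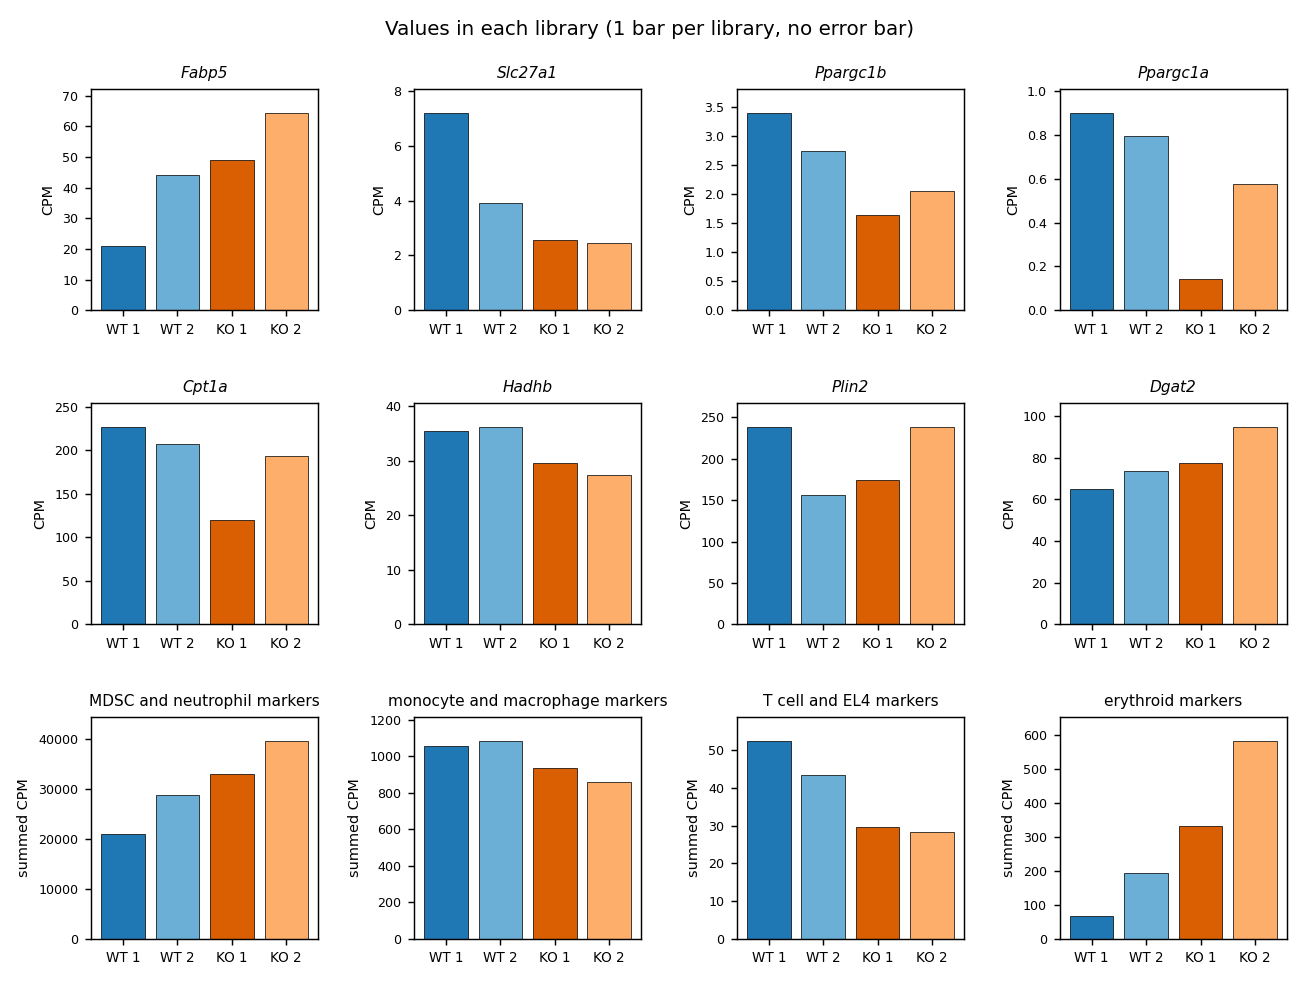
CPM in each of the 4 libraries for 8 members (Fabp5, Slc27a1, Ppargc1b, Ppargc1a, Cpt1a, Hadhb, Plin2 and Dgat2) and the summed CPM of 4 marker lists, as bars from 0. Fabp5 increases in the same library order as the MDSC and neutrophil and the erythroid sums. Of all tested genes 20.8% are lowest in WT replicate 1 and highest in Sphk2 KO replicate 2. Plin2 is as high in 1 WT library as in 1 Sphk2 KO library.

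Of the 4 long-chain acyl-CoA synthetases 3 had positive log2 fold changes, with a median of 0.19 (0.012 with library size alone). Acsl1, the main form of neutrophils and macrophages under inflammation, had 128 and 114 CPM in WT and 142 and 136 CPM in Sphk2 KO, both above the WT range (log2 fold change 0.20, 95% interval -0.14 to 0.54). Acsl5 had 52.4 and 46.7 CPM in WT against 59.3 and 52.7 CPM (0.18 on the log2 scale), with the lower Sphk2 KO library barely above the higher WT library. Acsl4, which prefers arachidonic acid, ran the other way, at 29.6 and 27.5 CPM in WT and 26.4 and 24.8 CPM in the Sphk2 KO libraries (log2 fold change -0.16, 95% interval -0.54 to 0.22). Acsl3, the form found on nascent droplets, was low at 2.02 to 3.21 CPM, with overlap and a wide interval (log2 fold change 0.31, 95% interval -0.54 to 1.16). With library size alone 0 of the 4 lay above and 1 lay below the WT range, while 41.4% of all tested genes lay outside it. Per kilobase, Acsl1 was 1.11 to 1.20 times as high as Acsl5, 2.14 to 2.83 times as high as Acsl4 and 18.4 to 27.1 times as high as Acsl3. With the longest coding transcript as length these ratios were 2.61 to 2.82, 5.63 to 7.44 and 44.9 to 66.1, so their size depends on the gene model.

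Droplet and triglyceride genes were among the most abundant members. Dgat1 and Dgat2 encode the unrelated enzymes that both catalyse the last step of triglyceride synthesis. Dgat1 (ENSMUSG00000022555, chromosome 15) was at 215 and 281 CPM in WT and 295 and 261 CPM in Sphk2 KO, with overlapping groups (log2 fold change 0.17, 95% interval -0.28 to 0.61). Dgat2 was at 64.9 and 73.9 CPM in WT and 77.7 and 94.9 CPM in Sphk2 KO, both above the WT range (log2 fold change 0.32, SE 0.162, 95% interval -0.06 to 0.69, with an edgeR adjusted p of 0.523). Within a library Dgat1 was 2.78 to 3.84 times as high as Dgat2 per kilobase.

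Plin2 (ENSMUSG00000028494, chromosome 4), whose start-site window is printed above, encodes the droplet coat protein whose amount is known to follow droplet content in many cells. It was at 238 and 157 CPM in WT and at 175 and 238 CPM in Sphk2 KO. The highest library of each genotype stood at the same value, and the mean was 197 ± 57.4 CPM over the WT libraries and 207 ± 45.0 CPM over the Sphk2 KO libraries (SD, n = 2 each). The log2 fold change was 0.07, with a 95% interval of -0.48 to 0.62. Plin3, a coat protein that shuttles between cytosol and droplets, had 26.8 and 17.7 CPM in WT and 26.3 and 21.4 CPM in Sphk2 KO, both within the WT range. Plin2 exceeded Plin3 by 7.18 to 12.0 times per kilobase (12.9 to 21.5 with the longest coding transcript). Hilpda, a hypoxia-induced inhibitor of the lipase ATGL, was low, at 2.27 to 3.88 CPM, with WT replicate 1 the highest. Of these 5 genes 4 had positive log2 fold changes with a median of 0.09, which became -0.09 with library size alone.

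Both droplet lipases had higher values in Sphk2 KO, Pnpla2 by 1.17-fold and Lipe by 1.14-fold. Pnpla2 (ENSMUSG00000025509, chromosome 7) encodes ATGL, the first lipase of triglyceride breakdown, and was at 228 and 255 CPM in WT and 262 and 304 CPM in the Sphk2 KO libraries (log2 fold change 0.23, SE 0.176, 95% interval -0.17 to 0.63, with an edgeR adjusted p of 0.656). Lipe, which encodes hormone-sensitive lipase, was at 70.0 and 88.7 CPM in WT and 92.0 and 89.1 CPM in Sphk2 KO (0.19 on the log2 scale). In neither gene did the groups overlap with TMM scaling, and both overlapped with library size alone. Pnpla2 was 5.55 to 6.65 times as high as Lipe per kilobase.

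**Figure D3:**
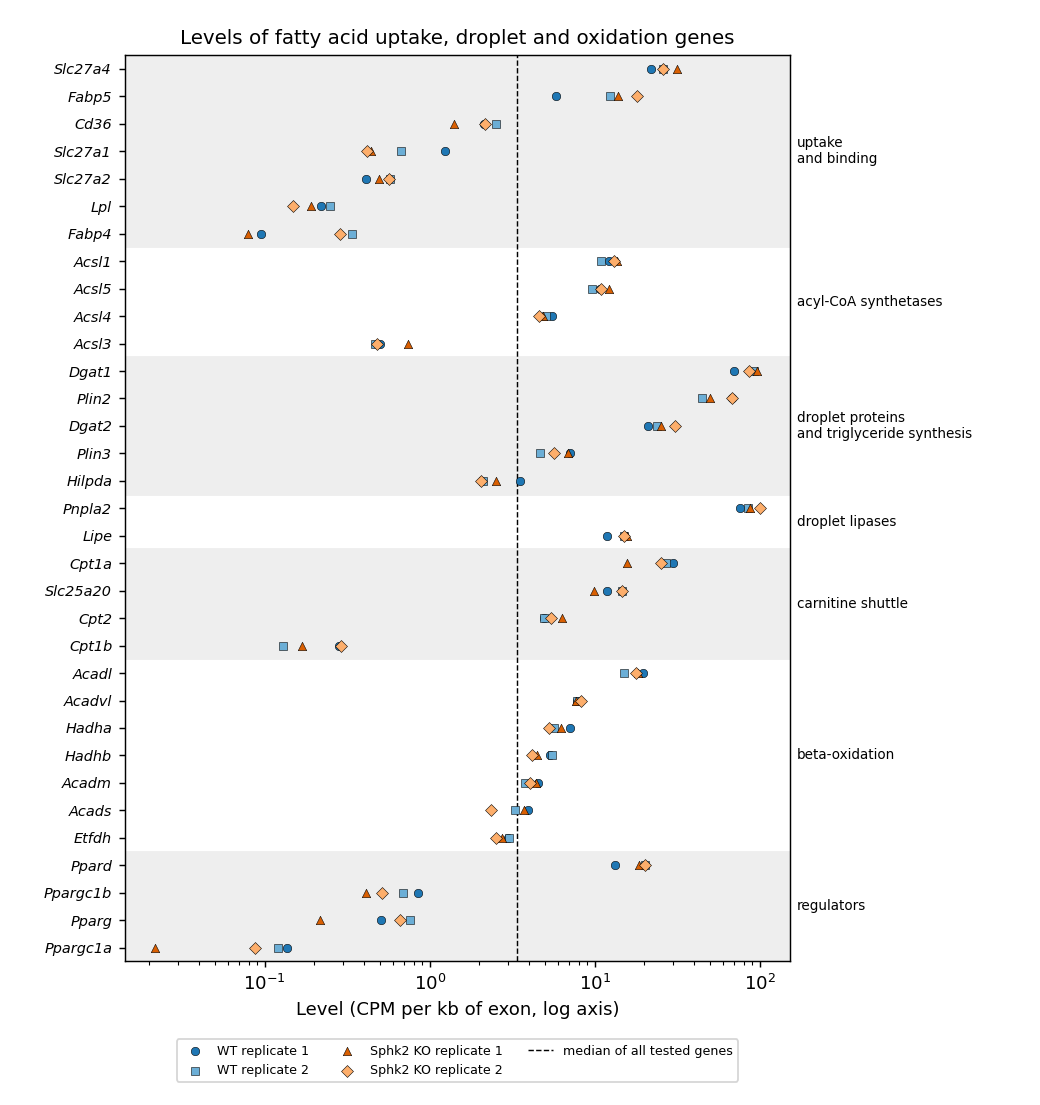
CPM per kilobase of exon, on a log axis, in each of the 4 libraries for the 33 tested members by role, with a dashed line at the median of all tested genes (3.36). Pnpla2, Dgat1 and Plin2 are highest and Ppargc1a lowest, and the spread between genes is far wider than that between libraries of 1 gene.

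Ordered by mean level per kilobase over the 4 libraries, Pnpla2 (86.8 CPM per kilobase) and Dgat1 (86.1) came first, and their libraries overlapped. Plin2 followed at 57.5, with its highest library at 67.9 below the lowest of Dgat1 at 70.3. After a gap came Slc27a4 at 26.3, Dgat2 at 25.2 and Cpt1a at 24.5, which overlapped, then Ppard at 18.1, Acadl at 17.7, Lipe at 14.4 and Slc25a20 at 12.8, each overlapping its neighbours in this order. Pnpla2 and Dgat1 stood at percentile 97.3 and Plin2 at percentile 95.5 of all tested genes. These genes also led when the longest coding transcript replaced all exon bases, with Dgat1 ranked 1, Plin2 ranked 2 and Pnpla2 ranked 3, while Fabp5 moved from rank 11 to rank 4 and Slc27a4 from rank 4 to rank 10. The lowest tested member by either length was Ppargc1a, at 0.0917 CPM per kilobase of exon. Fabp4 was next at 0.200, but it stood at 1.00 and rank 26 with the longest coding transcript.

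The carnitine shuttle takes long-chain fatty acids across the mitochondrial membranes. Cpt1a (ENSMUSG00000024900, chromosome 19), its rate-limiting outer membrane enzyme, was at 227 and 207 CPM in WT and at 120 and 194 CPM in Sphk2 KO. Neither Sphk2 KO library reached the WT range, replicate 1 by far the more. The mean was 217 ± 14.3 CPM over the WT libraries and 157 ± 52.0 CPM over the Sphk2 KO libraries (SD, n = 2 each), with a log2 fold change of -0.47 (SE 0.230, 95% interval -0.99 to 0.06, with an edgeR adjusted p of 0.509). Without Sphk2 KO replicate 1 the log2 fold change was -0.17, against -0.85 when Sphk2 KO replicate 2 was left out.

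The partners of Cpt1a did not have the same pattern. Cpt2, the inner membrane enzyme that hands the chain back to coenzyme A, was at 11.7 and 11.9 CPM in WT and 15.1 and 13.0 CPM in Sphk2 KO, both above the WT range (log2 fold change 0.24, 95% interval -0.24 to 0.73). Slc25a20, the carnitine and acylcarnitine translocase, was at 57.7 and 70.7 CPM in WT and 48.1 and 70.6 CPM in Sphk2 KO, with overlap and again with Sphk2 KO replicate 1 the lowest. Cpt1b, the form of muscle, was at 0.434 to 0.979 CPM, and 92.1% of its 75-base stretches also occur in the overlapping gene model Gm44502, so its counts are uncertain. Cpt1a was 87.4 to 211 times as high as Cpt1b per kilobase (133 to 320 with the longest coding transcript).

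For the mitochondrial oxidation enzymes all 7 intervals lay within a 2-fold change. The acyl-CoA dehydrogenases take the first step, each for its own range of chain lengths. Acadvl, for very long chains, was at 20.9 and 20.9 CPM in WT and 20.6 and 22.1 CPM in the Sphk2 KO libraries (log2 fold change 0.03, 95% interval -0.37 to 0.44). Acadl, for long chains, was at 39.4 and 30.4 CPM in WT and 36.7 and 35.5 CPM in Sphk2 KO, both inside the WT range (0.05 on the log2 scale). Acadm, for medium chains, lay at 14.8 to 17.7 CPM and Acads, for short chains, at 5.34 to 8.97 CPM, each with overlap. Acadl was the highest of the 4 in every library, 1.95 to 2.53 times as high as Acadvl and 4.00 to 4.35 times as high as Acadm per kilobase. With the longest coding transcript these ratios were 1.64 to 2.13 and 2.19 to 2.38.

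The subunits of the trifunctional protein, whose genes share the start region printed above, both had negative values. Hadhb (ENSMUSG00000059447, chromosome 5) was at 35.5 and 36.2 CPM in WT and 29.5 and 27.5 CPM in Sphk2 KO. The libraries of each genotype lay close together and the groups did not overlap, with means of 35.8 ± 0.518 and 28.5 ± 1.48 CPM (SD, n = 2 each) and a log2 fold change of -0.33 (SE 0.159, 95% interval -0.70 to 0.03, with an edgeR adjusted p of 0.496). Hadha was at 62.2 and 49.6 CPM in WT and 54.6 and 46.0 CPM in Sphk2 KO, where Sphk2 KO replicate 1 lay between the WT libraries (log2 fold change -0.16, 95% interval -0.55 to 0.24). Hadha was 1.04 to 1.40 times as high as Hadhb per kilobase of all exons but 0.699 to 0.942 times with the longest coding transcript, so the order of the subunits depends on the gene model. Etfdh, which passes the electrons of these steps to ubiquinone, was at 22.5 and 22.8 CPM in WT and 20.7 and 18.8 CPM in Sphk2 KO, below the WT range (log2 fold change -0.20, 95% interval -0.61 to 0.21). Over the 7 genes the median was -0.16, and it was 0.0063 without WT replicate 1. Of the 7, 0 lay above and 2 (28.6%) below the WT range, against 20.4% and 22.7% of all tested genes.

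Of the regulators, Ppard, the PPAR form found in most tissues, was the only one at a high level. It was at 100 and 152 CPM in WT and 140 and 152 CPM in Sphk2 KO, with overlap (log2 fold change 0.21, 95% interval -0.27 to 0.69). Pparg, the form of adipocytes and tissue macrophages, was at 1.49 and 2.24 CPM in WT and 0.642 and 1.96 CPM in Sphk2 KO, and Ppard exceeded it 26.5 to 85.4 times per kilobase (43.8 to 141 with the longest coding transcript). Ppara, the form of liver and other oxidative tissues, had 1 count in WT replicate 1 and none elsewhere. Pdk4, a PPAR target in many tissues that holds back pyruvate oxidation, had 1 count in WT replicate 2 and none elsewhere. Both were too low to test, and 0 counts allow up to 0.214 and 0.133 CPM in Sphk2 KO replicates 1 and 2.

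The PGC-1 coactivators, which drive mitochondrial genes, were low and below the WT range in both Sphk2 KO libraries. Ppargc1b was at 3.40 and 2.75 CPM in WT and 1.64 and 2.05 CPM in the Sphk2 KO libraries (log2 fold change -0.73, SE 0.349, 95% interval -1.53 to 0.07, with an edgeR adjusted p of 0.496). Ppargc1a rested on few reads, with counts of 17 and 11 for the WT libraries and of 2 and 13 for the Sphk2 KO libraries, or 0.903 and 0.795 CPM against 0.143 and 0.578 CPM. Its log2 fold change was -1.10 (SE 0.604, 95% interval -2.48 to 0.29, with an edgeR adjusted p of 0.547), and it was -0.56 without Sphk2 KO replicate 1. Ppargc1b exceeded Ppargc1a 5.71 to 6.22 times per kilobase in 3 libraries, and in Sphk2 KO replicate 1 the 2 counts of Ppargc1a are below the floor of 3 counts and give no ratio. The related coactivator Pprc1 was 2.90 to 4.89 times as high again as Ppargc1b.

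The lowest of the 4 libraries varied among the members. It was WT replicate 1 for 9 and each of the other libraries for 8. Over all tested genes the shares were 32.8% and 18.9% for WT replicates 1 and 2. They were 16.4% and 32% for Sphk2 KO replicates 1 and 2. The members lowest in Sphk2 KO replicate 1, 24.2% of the 33, were Cd36, Fabp4, Cpt1a, Slc25a20, Acadvl, Pparg, Ppargc1a and Ppargc1b. Of the 13 tested monocyte and macrophage markers 3 were lowest there (C1qa, C1qb and Apoe), and of the 6 tested large peritoneal macrophage markers 3 were (Prg4, Cd5l and Vsig4). The summed level of the latter list was 37.5 and 41.0 CPM in WT and 40.9 and 43.5 CPM in Sphk2 KO, and its defining gene Gata6 had 0, 0, 0 and 6 counts. The part of these cells in the members' values was not tested.

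A wider set of 111 genes of the same pathway gave the surroundings. Of these, 89 were tested and 0 were called, beside the background of 0.109%, and 14 (15.7%) had an unadjusted p under 0.05 against 10.5% of all tested genes. The smallest edgeR adjusted p was 0.322, for Foxo1, a transcription factor of lipid and glucose use, at 40.1 and 38.9 CPM in WT and 25.1 and 16.9 CPM in the Sphk2 KO libraries (log2 fold change -0.92, SE 0.214). B and T cells also express Foxo1, and the part of the B cell and T cell markers given above in its values was not tested. Other genes with an unadjusted p under 0.05 and lower values were Msr1, Lipc, Ffar1, Hadh, Decr1, Acot2, Pprc1 and Nrip1, and those with higher values were Lipg, Mgll, Abcd2, Prkab1 and Ncoa1.

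Further lists hold other enzymes of mitochondrial and of peroxisomal oxidation. Of 25 tested mitochondrial genes, 9 had positive and 16 negative log2 fold changes (median -0.24). Of these 25, 3 (12%) lay above and 10 (40%) below the WT range, against 20.4% and 22.7% of all tested genes. With library size alone that median was -0.41, beside -0.17 for all tested genes, with 1 above and 14 below. At that setting 41.4% of all tested genes lay outside the WT range, on either side. Decr1, needed for unsaturated chains, was at 3.24 and 2.89 CPM in WT and 1.36 and 0.979 CPM in the Sphk2 KO libraries (log2 fold change -1.42, SE 0.374, with an edgeR adjusted p of 0.392). Hadh, the short-chain dehydrogenase of the spiral, was at 7.17 and 3.90 CPM against 3.14 and 2.31 CPM. Ucp2, the most abundant of this list, was at 774 and 908 CPM against 724 and 917 CPM. Of 15 tested peroxisomal genes, 10 had positive values (median 0.13), and 8 (53.3%) lay above and 1 (6.67%) below the WT range. With library size alone the list median was -0.03, beside -0.17 for all tested genes, and 2 lay above and 1 below. Abcd2, a peroxisomal transporter of very long chains, was at 65.9 and 63.7 CPM in WT and 91.0 and 86.8 CPM in the Sphk2 KO libraries (log2 fold change 0.46, SE 0.140, with an edgeR adjusted p of 0.405). The difference between these lists was not tested.

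**Figure D4:**
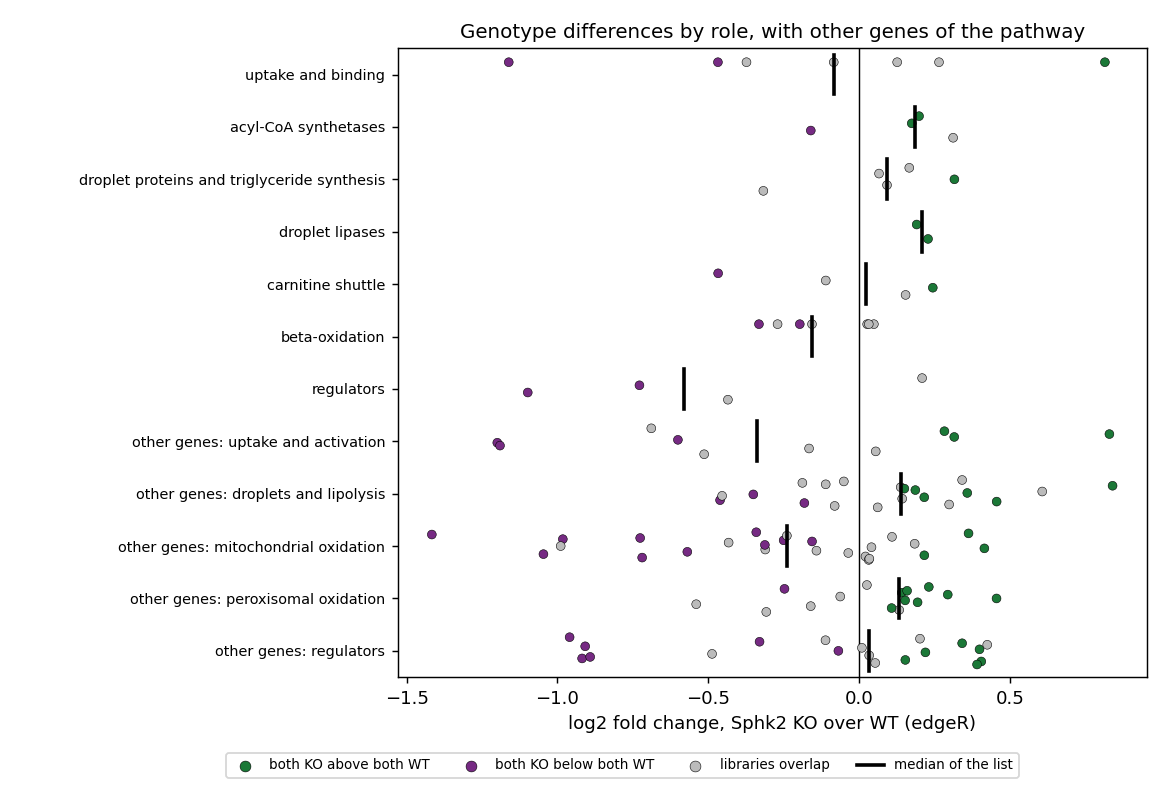
Log2 fold change (Sphk2 KO over WT) of each tested gene by role, members first and the related lists after them, with a black bar at each list's median. Green points have both Sphk2 KO libraries above both WT libraries, purple points both below, and grey points overlap. The related mitochondrial list holds 10 purple points of 25 and the peroxisomal list 8 green points of 15. Of all tested genes 20.4% lay above and 22.7% below.

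Around the droplet, Mgll, which cleaves the last fatty acid from glycerol, was at 11.7 and 15.9 CPM in WT and 26.2 and 23.1 CPM in the Sphk2 KO libraries (log2 fold change 0.84, SE 0.217, with an edgeR adjusted p of 0.382). G0s2, an inhibitor of ATGL, was at 64.1 and 69.3 CPM in WT and 136 and 67.4 CPM in Sphk2 KO, so that 1 library stood alone. Abhd5, the ATGL activator, was at 66.7 and 88.4 CPM against 83.7 and 113 CPM, and per kilobase it was 0.0898 to 0.244 times the level of G0s2 (0.169 to 0.461 with the longest coding transcript). Lipg, endothelial lipase, was at 48.3 and 33.2 CPM in WT and 60.3 and 84.7 CPM in the Sphk2 KO libraries (log2 fold change 0.83, SE 0.229, with an edgeR adjusted p of 0.402). Msr1, a scavenger receptor of macrophages, was at 25.6 and 14.4 CPM against 11.5 and 6.27 CPM, in the library order of Ccr2. Of the 13 tested monocyte and macrophage markers 10 overlapped between genotypes, and the part of monocytes in the Msr1 values was not tested.

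Several members cannot be fully separated from neighbours. Exons of Slc27a2, Acsl1, Acsl5, Lipe, Acadvl, Hadha and Etfdh overlap exons of a gene on the opposite strand in the annotation used, and the strand setting of the counting is not given. Shared 75-base stretches were 6.54% of Slc25a20, 3.43% of Acsl3, 1.60% of Plin2 and 1.33% of Fabp5, so most of each gene's sequence is its own.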

How the data were processed

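RNA sequencing measured polyadenylated RNA of sorted MDSCs in 4 libraries, 2 per genotype, grouped by their labels. The authors deposited raw counts per Ensembl gene ID. Per the submitters' processing notes, the tools were Trim Galore, STAR, featureCounts and DESeq2 and the build GRCm39; versions were not listed. Per the labels' protocols, libraries were made from 250 ng of RNA with poly(A) selection and a directional kit. Annotation release, strand setting and multi-mapping rule: not given in the sources used here.

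Symbols were assigned to 52083 of the 55416 IDs, and 0 rows named no gene. Counts were filtered with filterByExpr, scaled by TMM and tested with edgeR 4.0.16 in R 4.3.3 (glmQLFit, glmQLFTest, genotype as the only term). Genes were called at a Benjamini-Hochberg adjusted p under 0.05. Standard errors are the log2 fold change over the square root of F, and 95% intervals use the t distribution of the fit. WT replicate 1 held 16535999 counts, WT replicate 2 held 14087613, Sphk2 KO replicate 1 held 14386636 and Sphk2 KO replicate 2 held 24685576. Replicates were not copies of one library (chi-square per degree of freedom 29.3 within WT, 18.9 within Sphk2 KO), and the floor of 3 counts covers counting error only. Exon lengths and shared 75-base stretches came from GENCODE M21, which is on GRCm38, so no coordinates of the counted genes are printed. Start-site windows are RefSeq's.

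All members are accounted for. Those described most fully have an unadjusted p under 0.05, are among the 10 highest per kilobase, or lie outside the WT range with a log2 fold change of at least 0.5 either way. Related genes are named where their unadjusted p was under 0.05, and G0s2 and Ucp2 because they lead their lists per kilobase. Got2, Scp2 and Ncor1, which lead the other related lists per kilobase, are not described. Abhd5 and the marker genes Ccr2, Fcgr1, Apoe, C1qa, C1qb, Prg4, Cd5l, Vsig4, Cd5, Itga2b, Itgb3 and Retn were added after their values were seen. Members and lists were chosen with earlier results of these data known. The procedure was tested on simulated counts. Alternatives were DESeq2 1.42.0, limma-voom 3.58.1, size factors by RLE, library size without scaling, all genes with a count, a filter of 1 CPM in 2 libraries with 100 counts in all, robust empirical Bayes, a replicate block, leaving out each library and, chosen after seeing the data, the longest coding transcript as length.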

Additional observations from a re-analysis of the deposited data

How the results depend on the processing

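The count of 0 called members was the same with DESeq2, limma-voom, the stricter filter, robust empirical Bayes, library size alone and RLE size factors. With no count filter 2 members (Fabp5 and Slc27a1) and 7 related genes were called, beside 615 genes (2.07%) in the whole table, and DESeq2 called 76 genes (0.256%) in the whole table. Leaving out 1 library, which leaves a lone sample assumed to vary like the other group, gave 0 to 2 called members, 1 to 10 related genes and 54 to 1061 genes in the whole table. The 2 members were Fabp5 and Slc27a1, both without WT replicate 2 (5.93% of all genes called there) and Fabp5 alone without Sphk2 KO replicate 1 (3.57%). The members' median was -0.14 with library size alone and -0.11 to 0.069 when 1 library was left out.

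With the replicate number as a block, 2637 genes (15.9%) were called, among them 5 members (Fabp5 and Dgat2 higher, Slc27a1, Cpt1a and Hadhb lower) and 25 related genes. Same-numbered libraries deviated together (correlation of deviations 0.438 over 16566 genes), but the labels do not say that a number marks a shared batch, so pairing is a hint from the data only.

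Of the 33 members, 17 kept the sign of the log2 fold change under every one of the 12 alternatives that tested them, and no value that changed sign was called. With library size alone the sign changed for Slc27a2 (-0.043), Plin2 (-0.13), Plin3 (-0.093), Cpt1b (-0.050), Acadm (-0.15), Acadl (-0.13) and Acadvl (-0.14). When 1 library was left out, the sign changed at least once for Fabp4 (-1.36 to 1.04), Slc27a2 (-0.12 to 0.40), Acsl3 (-0.015 to 0.62), Plin2 (-0.19 to 0.39), Plin3 (-0.16 to 0.42), Hilpda (-0.61 to 0.11), Dgat1 (-0.025 to 0.39), Cpt1b (-0.31 to 0.85), Slc25a20 (-0.41 to 0.13), Acadm (-0.077 to 0.15), Acadl (-0.11 to 0.24), Acads (-0.63 to 0.042), Acadvl (-0.010 to 0.074), Hadha (-0.29 to 0.0063), Pparg (-1.50 to 0.080) and Ppard (-0.072 to 0.56), where the lowest and highest log2 fold changes are given. The causes were not tested. Members outside the WT range numbered 16 of 33 with RLE size factors, beside 43.7% of all tested genes. With library size alone they numbered 13, beside 41.4%. With the longest coding transcript, 20 of 33 levels moved by more than the spread between libraries. Depth limits Fabp4, Cpt1b and Ppargc1a, which lie below 2 CPM in every library.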
